A study of Mus musculus with 16 samples.

Results

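Superficial intratelencephalic (IT) neurons are the glutamatergic cells of the upper cortical layers. Here they were picked nucleus by nucleus from counts of a few marker transcripts. A nucleus was a member if it held at least 2 unique molecular identifiers (UMIs) of Slc17a7, which encodes the vesicular glutamate transporter of cortical excitatory neurons, no UMI of the GABA-synthesizing enzymes Gad1 and Gad2, at least 3 UMIs in the sum of the upper-layer genes Cux2, Rasgrf2, and Otof, and none of the deep-layer genes Foxp2, Fezf2, and Tshz2. The rule found 848 of 114512 nuclei in 16 mice. Because it reads the measured counts, the levels of these 9 genes are descriptions, and no test of them is reported. They were not taken out of the fits of all genes.

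Single-nucleus RNA-Seq was done on the medial prefrontal cortex (prelimbic and infralimbic areas) of male mice aged 22 weeks, with 1 library per mouse and 4 mice in each of 4 groups. The WT control and WT alcohol groups had the strain label B6;129. The 3xTg-AD control and 3xTg-AD alcohol groups were 3xTg-AD mice, a single line that carries mutant human amyloid precursor protein and tau transgenes and a mutant knock-in allele on a mixed background, so effects of the transgenes and of strain background cannot be told apart. Alcohol mice were injected with ethanol and pyrazole, an inhibitor of alcohol dehydrogenase, and kept in repeated cycles of alcohol vapor, while control mice had pyrazole in saline and air, so all 4 groups had pyrazole. Mice had been tested in a water maze before. According to the study, tissue was taken more than a week after the last vapor exposure. Alcohol here therefore means a history of exposure. The count table lists mouse App and Mapt and no separate human transcript of either.

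IT neurons send axons within the telencephalon, to other cortical areas, the opposite hemisphere, and the striatum, and not to the thalamus, brainstem, or spinal cord. Those of the upper layers carry most of the traffic between cortical areas and are recognized by the transcription factors Cux1 and Cux2 and by Rasgrf2, an exchange factor for Ras-family GTPases. Otof (otoferlin, a calcium sensor best known from the hair cell synapse) labels a part of them. Deeper excitatory classes are recognized by Fezf2, Foxp2, Tle4, or Bcl11b, and the IT cells between them by Rorb.

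Each mouse gave 4955–9096 nuclei and 9622031–17544364 UMIs. WT control mice 26 and 27 and 3xTg-AD control mouse 12 stood apart by the ribosomal RNA-associated transcript Gm42418, which in members was at 19337, 10098, and 9693 TMM-scaled CPM (UMI counts scaled to a common library total), against 1277–3315 in the other 13 mice. Of the nuclei, 3400 carried a cell barcode found in more than 1 library, 32 of them members, and no barcode was shared between members of different libraries. Slc17a7 was found in 58.7% of all nuclei. Intervals on shares cover counting error only.

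The steps of the rule narrowed the table quickly. There were 35310 nuclei with at least 2 Slc17a7 UMIs, 29001 of these had no Gad1 or Gad2 UMI (called glutamatergic from here on), 924 of these reached the upper-layer sum, and 848 of these had no deep-layer UMI. Members came from every mouse, from 17 nuclei in 3xTg-AD control mouse 12 to 100 in WT control mouse 26 and WT alcohol mouse 17. Their UMIs summed to 63908–489077 per mouse. A member held 3418 UMIs and 1793.5 genes at the median, more than the 2535 UMIs of all glutamatergic nuclei.

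Rasgrf2 and Cux2 chose most of the members. Rasgrf2 gave 1495 UMIs in 729 members, Cux2 gave 1128 in 632, and Otof gave 334 in 259. By combination, 398 members (46.9%) had Cux2 and Rasgrf2 without Otof, 118 (13.9%) had all 3, 116 (13.7%) had Rasgrf2 only, 97 (11.4%) had Rasgrf2 and Otof, 75 (8.84%) had Cux2 only, 41 (4.83%) had Cux2 and Otof, and 3 (0.354%) had Otof only. The limit of 3 UMIs cut through a steep slope. Just inside it lay 575 nuclei with a sum of 3, in which Cux1 was at 114 CPM, Calb1 at 139 CPM, and Rorb at 77.3 CPM, and just outside it lay 1668 nuclei with a sum of 2, with Cux1 at 98.2 CPM, Calb1 at 116 CPM, and Rorb at 114 CPM. Another 362 nuclei met the rule but for a Slc17a7 count of 1, and 64 but for a single deep-layer UMI.

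The label was checked against markers the rule did not read. For this, 816 deep-layer marker nuclei (glutamatergic, at least 3 UMIs of Foxp2, Fezf2, and Tshz2, and no upper-layer UMI) and 597 Rorb nuclei (glutamatergic, at least 3 UMIs of Rorb, and no UMI of the other layer genes) were taken from the same mice. Levels in this comparison are CPM of the class's summed UMIs, as mean ± SD over 16 mice, and carry no test, since counts of the same nuclei chose the classes.

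The upper-layer label held for most of the markers. Rfx3, a transcription factor, was at 111 ± 41.3 CPM in members, 29.9 ± 18.8 in deep-layer marker nuclei, and 36.6 ± 24.7 in Rorb nuclei, and members were higher than both in all 16 mice. Calb1 (calbindin, a calcium buffer of upper-layer neurons) was at 130.4 ± 46.1 CPM in members, 57.3 ± 45.3 in deep-layer marker nuclei, and 52.8 ± 22.9 in Rorb nuclei, and members exceeded the Rorb nuclei in 16 of 16 mice and the deep-layer marker nuclei in 15. Cux1 was at 108 ± 37.4 CPM in members against 44.5 ± 18.3 and 67.0 ± 44.9. Lamp5 (135 ± 44.0 CPM in members), Wfs1 (58.4 ± 31.1), Matn2 (66.2 ± 36.9), Stard8 (38.7 ± 16.7), and Ccbe1 (36.5 ± 22.5) were also higher than the means of both other classes. Pou3f2 and Unc5d set members apart from the deep-layer marker nuclei but not from the Rorb nuclei, which were at 71.2 ± 34.04 and 43.1 ± 23.6 CPM against 61.8 ± 20.9 and 37.6 ± 23.6 in members.

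Markers of deeper neurons were low in members. Tle4, a corepressor of corticothalamic cells, was at 58.1 ± 23.7 CPM against 527 ± 129 in deep-layer marker nuclei. Bcl11b, a transcription factor of subcortically projecting cells, was at 37.1 ± 18.1 CPM against 224 ± 38.7, and Etv1 was at 31.6 ± 14.6 CPM against 332 ± 125 in deep-layer marker nuclei and 139 ± 60.9 in Rorb nuclei. Members were lower than the deep-layer marker nuclei for all 3 genes in 16 of 16 mice. Rorb was not absent, at 68.6 ± 32.3 CPM in members, close to the 57.1 ± 47.0 of the deep-layer marker nuclei and far from the 1220 ± 187 of the nuclei chosen for it.

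**Figure D1:**
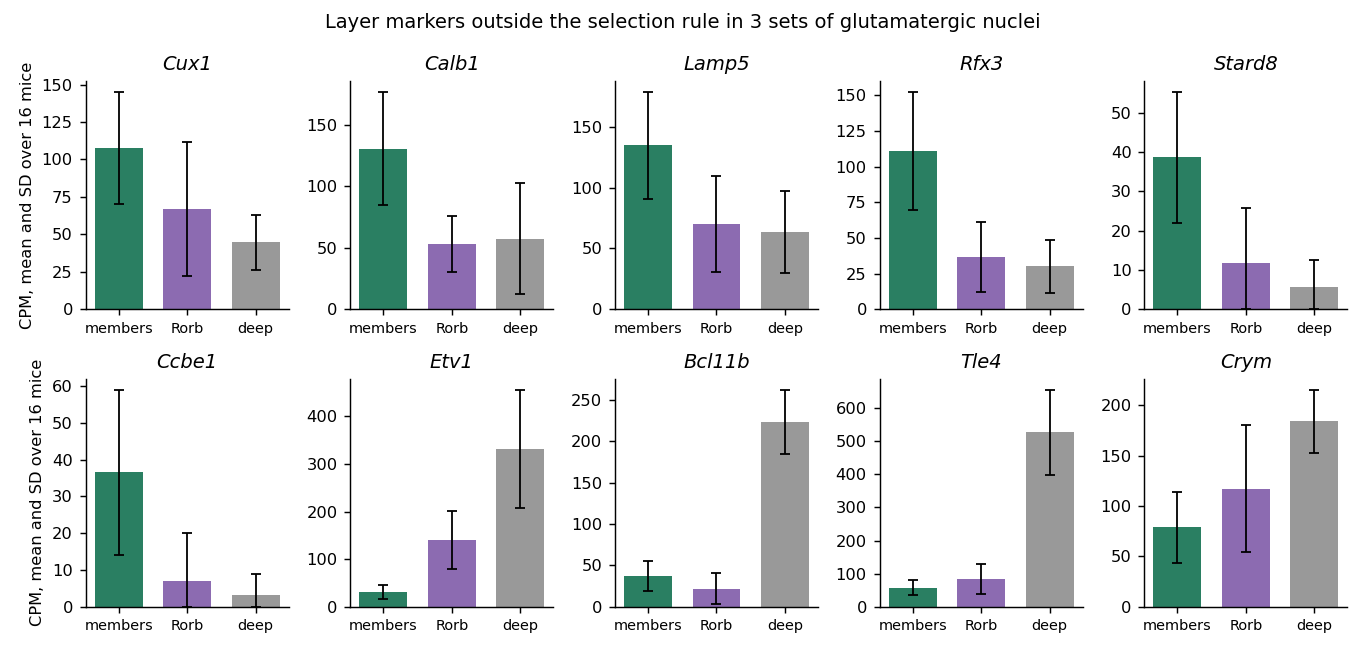
Levels (CPM, linear axes from 0) of 10 layer markers that the rule did not read, as bars with SD over 16 mice, in members, Rorb nuclei, and deep-layer marker nuclei. Rfx3 stood at 111 CPM in members against 36.6 and 29.9 in the other classes, while Tle4 stood at 58.1 CPM in members against 527 in deep-layer marker nuclei.

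In single nuclei the markers were sparse. After each nucleus was thinned to 1500 UMIs (823 of 848 members were deep enough), Rfx3 was found in 12.3% of members, 4.32% of deep-layer marker nuclei, 5% of Rorb nuclei, and 7.17% of astrocyte-marked nuclei, and without thinning in 29.7%, 8.33%, 10.4%, and 7.36%. Calb1 was found in 19.6% of thinned members, but also in 13.7% of oligodendrocyte-marked and 14.3% of astrocyte-marked nuclei, which should lack it and had medians of 960.5 and 1397.5 UMIs before thinning. A single Calb1 UMI therefore does not tell a member from background, although the deep-layer marker and Rorb nuclei, at 6.91% and 7.86%, were lower.

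The members were not free of other cells' transcripts. Between 31.2% (WT alcohol mouse 7) and 78.8% (3xTg-AD alcohol mouse 34) of the members of a mouse held more than 1 UMI of markers of other cell types. Summed over a list, 8 GABAergic markers took 41.2–319 CPM, 7 astrocyte markers 89.3–431 CPM, 7 oligodendrocyte markers 105–268 CPM, 8 microglia markers 24.8–201 CPM, 4 oligodendrocyte precursor markers 0–57.4 CPM, and 6 endothelial markers 0–22.3 CPM. One defining gene was at 0 among the endothelial markers, and Adora2a was at 0 among the striatal ones, whose sum of 335–539 CPM came mostly from Meis2 (383 ± 57.9 CPM), a gene not restricted to the striatum. Drd2, the receptor of striatal projection neurons, had 1 UMI in all members.

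Genes beyond the markers were compared with the deep-layer marker nuclei first. The comparison took 9861 genes with at least 60 UMIs in the classes compared and more than 3 in each, so genes nearly absent from a class were left out. Of these, 116 were higher in members than in deep-layer marker nuclei in all 16 mice, 82 of them at least 2-fold, and 155 were lower, 107 of them at least 2-fold. The genes named from these comparisons were picked after their values were seen. Among the highest folds were Kcnh4, a voltage-gated potassium channel (34.8 ± 17.6 against 1.89 ± 3.66 CPM, 18.4-fold), the transcription factor Zfhx4 (133 ± 45.1 against 8.76 ± 9.02 CPM, 15.2-fold), and Trpc6, a cation channel gated by diacylglycerol (63.8 ± 18.9 against 4.38 ± 4.93 CPM, 14.6-fold). All deep-layer marker nuclei together held 6, 19, and 13 UMIs of these genes, so the sizes of these folds are imprecise. Further down, the adhesion gene Nectin3 was 9.21-fold and the receptor phosphatase Ptprk 7.97-fold higher. In Rorb nuclei these 5 genes were at 10.53 (Kcnh4), 68.1 (Zfhx4), 23.7 (Trpc6), 48.5 (Nectin3), and 176 CPM (Ptprk), between the other classes, and Trpc6 alone of them was higher in members than in Rorb nuclei in all 16 mice. Slc30a3, the transporter that loads zinc into glutamatergic vesicles, was at 237 ± 41.8 CPM in members against 50.2 ± 35.7 in deep-layer marker nuclei, and Cpne9, a copine that binds phospholipid in response to calcium, at 101 ± 34.6 against 13.8 ± 15.1 CPM. Both were shared with the Rorb nuclei, which had 266 ± 70.7 CPM of Slc30a3 and 114 ± 63.2 CPM of Cpne9.

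In the other direction, Grik1, a kainate receptor subunit, was 36.5-fold lower in members than in deep-layer marker nuclei (3.86 ± 5.601 against 141 ± 65.5 CPM, with 11 UMIs in all members), and a second subunit, Grik3, was 10.7-fold lower. Htr2c, the serotonin 2C receptor, was 10.6-fold lower (14.6 ± 7.89 against 154 ± 73.9 CPM). Col12a1, a collagen, and Rnf152, a ubiquitin ligase, were 24.1-fold and 28.8-fold lower.

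Against the Rorb nuclei the contrast was smaller. Of 9472 genes, 53 were higher in members in all 16 mice, 31 at least 2-fold, and 51 were lower, 29 at least 2-fold. Higher genes included the muscarinic receptor Chrm3 (108 against 24.2 CPM, 4.47-fold), Gabrd, the delta subunit of extrasynaptic GABA-A receptors (48.4 against 15.9 CPM, 3.05-fold), Lpl, lipoprotein lipase (39.1 against 5.18 CPM, 7.55-fold), and Evc2 (56.4 against 5.27 CPM, 10.7-fold). Lpl and Evc2 had 14 and 9 UMIs in all Rorb nuclei. Lower genes included the leak potassium channel Kcnk2 (27.1 against 197 CPM, 7.28-fold), the long noncoding RNA Rmst (56.9 against 285 CPM, 5.01-fold), and the histamine receptor Hrh3 (80.6 against 262 CPM, 3.25-fold).

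Members with and without Otof UMIs were also set side by side, as a description with no test. With Otof UMIs against without, and asking for the same direction in at least 13 of 16 mice, 93 of 7673 genes were higher and 209 lower, but 4 and 30 of these reached 2-fold. Cdh13 (T-cadherin) was higher in the Otof-positive members of 15 mice (104 against 47.2 CPM, 2.21-fold). Pcsk1, a prohormone-processing protease (8.96 against 35.1 CPM), and the granule protein Scg3 (39.7 against 90.4 CPM) were lower in 13 and 14 mice. Rmst and Hrh3, which were low in members against Rorb nuclei, were 2.77-fold and 2.22-fold lower still in those with Otof. Among so many genes, a count of those alike in 13 mice includes genes that meet it by chance, so the counts are not read as a difference between the sets. The Otof-positive set is the smaller one (259 of 848 members), and these are sums of few UMIs, 10 for Pcsk1 and 100 for Cdh13 in the Otof-positive members.

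The share of members among glutamatergic nuclei was the first comparison between groups. It asked whether upper-layer IT nuclei were recovered alike in the 4 groups. In single-nucleus data, fewer cells and less marker RNA per cell cannot be told apart here, because the rule needs marker counts.

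The share was 6.03%, 5.92%, 3.95%, and 3.09% in WT control mice 26, 27, 28, and 36. It was 4.12%, 2.42%, 4.81%, and 2.30% in WT alcohol mice 6, 7, 17, and 18. In 3xTg-AD control mice 12, 13, 14, and 21 it was 0.932%, 1.13%, 3.35%, and 1.99%. The 3xTg-AD alcohol mice 4, 31, 33, and 34 gave 1.86%, 2.62%, 1.79%, and 2.08%. All 3xTg-AD alcohol mice thus lay below all WT controls, 3xTg-AD control mouse 14 overlapped with the WT controls, and the WT alcohol mice overlapped with every group. By Wilson's 95% intervals, a single mouse's share was known to between 4.98% and 7.28% in WT control mouse 26 and between 0.582% and 1.49% in 3xTg-AD control mouse 12.

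No difference in share passed the threshold after adjustment. With 4 mice per group, a single fully separated comparison could not pass on its own, so this does not show that the shares were equal. The mean was 4.75 ± 1.46% (SD, n = 4) in WT controls and 2.09 ± 0.376% in 3xTg-AD alcohol mice, a difference of -2.66 percentage points (two-sided exact permutation test, p = 0.0286, the smallest that 4 against 4 mice can give, and 0.143 after Benjamini-Hochberg adjustment over 5 comparisons). The 3xTg-AD controls were at 1.85 ± 1.10%, -2.90 points from the WT controls (exact permutation p = 0.0571, adjusted 0.143), and the WT alcohol mice at 3.41 ± 1.25%, -1.34 points (exact permutation p = 0.229, adjusted 0.286). The 3xTg-AD alcohol mice differed by 0.237 points from the 3xTg-AD controls (exact permutation p = 0.686), a difference whose sign turned with at least 2 marker UMIs (-0.212), with thinning (-0.00471), and without the 3 mice high in Gm42418 (-0.0699), and by -1.32 points from the WT alcohol mice (exact permutation p = 0.0857, adjusted 0.143). The shares of deep-layer marker and Rorb nuclei gave exact permutation p values of 0.257–0.971 in the same comparisons.

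Thinned to 1500 UMIs, the mean share was 0.907% in WT controls (0.530–1.29%) and 0.472% in 3xTg-AD alcohol mice (0–0.692%), so both groups fell and they overlapped (difference -0.435 points, exact permutation p = 0.229). After thinning, 3–9 nuclei per WT control mouse and 0–8 per 3xTg-AD alcohol mouse still met the rule, in a single random draw. These are too few to decide whether the difference holds at equal depth. Without WT control mice 26 and 27 and 3xTg-AD control mouse 12 the means were 3.52% and 2.09%, and the groups still did not overlap (difference -1.43 points, exact permutation p = 0.0667, the smallest possible with 2 WT controls). Without the same mice, the 3xTg-AD controls differed from the WT controls by -1.36 points (exact permutation p = 0.3) and the WT alcohol mice by -0.109 points (exact permutation p = 1). Median UMIs per glutamatergic nucleus were 1933–3019 in WT controls and 2585–3182.5 in 3xTg-AD alcohol mice, which overlapped. As a share of all nuclei, the 3xTg-AD controls (0.290–0.878%) did not overlap with the WT controls (0.913–1.43%). There, both 3xTg-AD groups had an exact permutation p of 0.0286 versus WT controls (adjusted 0.0714). With at least 5 marker UMIs, the exact permutation p versus WT controls was 0.0286 for 3xTg-AD controls and 0.0571 for 3xTg-AD alcohol mice (adjusted 0.143 for both).

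**Figure D2:**
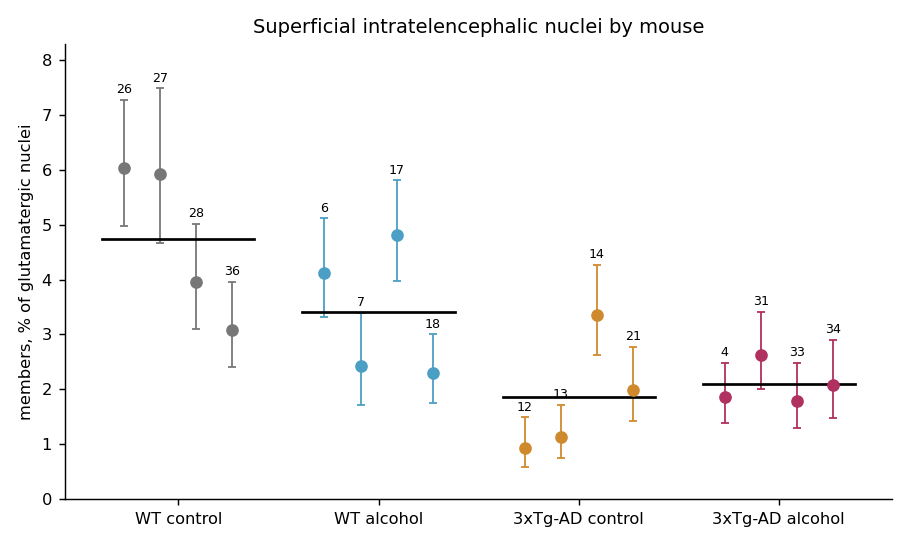
Members as a percentage of glutamatergic nuclei (axis from 0), with 1 point per mouse labeled by its number, Wilson 95% intervals as bars, and the mean of each group as a line. The 4 3xTg-AD alcohol mice lie between 1.79% and 2.62%, below the 3.09–6.03% of the WT controls.

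For gene expression, UMIs of the members were summed per mouse and 4427 genes were tested in 1 edgeR quasi-likelihood fit over the 16 mice, with calls at an adjusted p of at most 0.05. Levels below are TMM-scaled CPM, given in the order of mice 26, 27, 28, and 36 (WT control), 6, 7, 17, and 18 (WT alcohol), 12, 13, 14, and 21 (3xTg-AD control), and 4, 31, 33, and 34 (3xTg-AD alcohol). Few genes were called. The comparison of 3xTg-AD alcohol mice with WT controls gave 7 higher and 12 lower genes (0.429% of genes tested), 3xTg-AD controls versus WT controls gave 2 and 1 (0.0678%), WT alcohol mice versus WT controls gave 0 and 2 (0.0452%), and 3xTg-AD alcohol versus WT alcohol mice gave 2 and 3 (0.113%). Genotype over both treatments gave 5 higher and 2 lower genes (0.158%) and alcohol over both genotypes 1 lower (0.0226%). No gene was called between 3xTg-AD alcohol mice and 3xTg-AD controls (228 had an unadjusted p under 0.05) or for the interaction of genotype and alcohol (158), and DESeq2 called 0 in both as well. These counts of unadjusted p are near or below a share of 0.05 of the genes tested, which chance alone would give. Comparisons with WT controls share those 4 mice.

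Of the 7 genes called for genotype, 6 did not overlap between WT and 3xTg-AD mice, and Tmsb4x did. The calls were made on the same values, so the lack of overlap describes them and is no further support. The share of genes without overlap among all genes tested is not given here. Ccl27a, a chemokine, was at 83.2, 101, 109.5, and 73.0 in WT control mice and 125, 99.0, 92.1, and 145 in WT alcohol mice. In 3xTg-AD control mice it was at 17.5, 0, 23.3, and 22.1, and in 3xTg-AD alcohol mice at 15.9, 27.99, 42.2, and 16.7. Every WT mouse was above every 3xTg-AD mouse, whatever the treatment. The log2 fold change for genotype was -2.18 (SE 0.30, adjusted p = 4.12e-06), and the gene was also called in 3xTg-AD controls versus WT controls (-2.24, SE 0.48, adjusted p = 0.0212), a call lost in 4 of 16 fits without 1 mouse (WT control 27 or 3xTg-AD control 13, 14, or 21) at estimates of -2.56 to -2.01. The mouse genome holds near-identical copies of Ccl27a, so its reads may be split among them.

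Galnt1, an enzyme that starts mucin-type O-glycosylation, was at 277, 101, 142, and 95.8 in WT control mice and 371, 70.7, 159, and 194 in WT alcohol mice. It fell to 35.1, 0, 17.5, and 33.1 in 3xTg-AD control mice and 7.95, 11.2, 25.3, and 0 in 3xTg-AD alcohol mice. The genotypes did not overlap, though the WT mice spread widely. The log2 fold change was -3.51 (SE 0.48, adjusted p = 0.000659).

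Rpl29, a protein of the large ribosomal subunit, moved the other way. It was at 55.4, 57.5, 45.1, and 4.56 in WT control mice and 48.1, 14.1, 15.3, and 18.2 in WT alcohol mice, against 87.6, 89.1, 87.3, and 77.3 in 3xTg-AD control mice and 111, 118, 211, and 192 in 3xTg-AD alcohol mice. All 3xTg-AD mice were above all WT mice (log2 fold change 1.84, SE 0.29, adjusted p = 5.2e-05). Within the 3xTg-AD mice the alcohol group was the higher one without overlap, but the difference was not called (0.86, SE 0.36, adjusted p = 0.913). Ribosomal protein genes have many processed copies in the genome, so the count of 1 of them is uncertain. Aste1, which lies near Rpl29 on chromosome 9 (GRCm38, Aste1 9:105395392-105412229 and Rpl29 9:106429454-106431568), was at 9.12–64.4 in the 8 WT mice and 75.9–110.5 in the 8 3xTg-AD mice, and genotype moved it by 1.27 on the log2 scale (SE 0.29, adjusted p = 0.026). The Aste1 call was lost in 6 of 16 fits that each left out 1 mouse (WT control 36, WT alcohol 17 or 18, 3xTg-AD control 14 or 21, or 3xTg-AD alcohol 31), where the estimate stayed between 1.09 and 1.31.

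The remaining genotype genes were abundant. Gpm6b, a membrane proteolipid of neurons and glia, was at 863, 652, 767, and 584 in WT control, 717, 651, 688, and 721 in WT alcohol, 947, 1033, 1029.9, and 983 in 3xTg-AD control, and 1104, 1316, 1147, and 1394 in 3xTg-AD alcohol mice. The genotypes did not overlap (log2 fold change 0.66, SE 0.12, adjusted p = 0.00105). Gas5, a noncoding RNA that hosts small nucleolar RNAs, was at 109.5–283 in WT mice and 319–501 in 3xTg-AD mice, again without overlap (1.04, SE 0.17, adjusted p = 6.75e-05).
Tmsb4x, which encodes thymosin beta 4, the main actin monomer-binding peptide, had 634, 633, 1140.3, and 949 in WT control, 1338, 1471, 982, and 1253 in WT alcohol, 1279.6, 2119.7, 2479, and 2188 in 3xTg-AD control, and 2296, 1372, 2328, and 1895 in 3xTg-AD alcohol mice. Both 3xTg-AD groups were above all WT controls, while 1 mouse of each 3xTg-AD group lay within the range of the WT alcohol mice. It was called for genotype (0.97, SE 0.14, adjusted p = 4.88e-06) and in both 3xTg-AD groups versus WT controls (1.29, SE 0.20, adjusted p = 7.32e-05 without alcohol, and 1.24, SE 0.20, adjusted p = 9.59e-05 with it). Gpm6b (X:166238911-166388988) and Tmsb4x (X:167207093-167209315) lie in the same region of chromosome X, and all mice were male.

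Alcohol over both genotypes called a single gene, a count that rose to 7 without the 3 mice high in Gm42418 and to 4 without WT control mouse 36 and fell to 0 with members thinned to 1500 UMIs. Dynlt1f, 1 of several near-identical copies of the dynein light chain gene Dynlt1 on chromosome 17 (17:6646602-6655900), was at 239, 196, 193, and 178 in WT control mice and 62.6, 42.4, 25.6, and 72.7 in WT alcohol mice. It was at 35.1, 142, 128, and 133 in 3xTg-AD control mice and 95.3, 22.4, 59.0, and 33.4 in 3xTg-AD alcohol mice. The WT groups were far apart, and only 3xTg-AD control mouse 12 kept the control and alcohol mice from separating. The log2 fold change was -1.64 for alcohol (SE 0.25, adjusted p = 5.74e-05) and -2.09 in WT mice (SE 0.30, adjusted p = 1.04e-05). In 3xTg-AD mice it was -1.19 (SE 0.40, adjusted p = 0.81), and the interaction was 0.90 (SE 0.52, adjusted p = 1). The differences between alcohol and control mice were thus not shown to differ between the 2 genotypes. Tmem181a, a membrane protein gene nearby on the same chromosome (17:6256860-6308314), was the other gene called in WT mice. It was at 357, 220.5, 271, and 338 in WT control and 96.3, 99.0, 133, and 218 in WT alcohol mice, which did not overlap (-1.10, SE 0.24, adjusted p = 0.0394). This call was lost with DESeq2 (adjusted p = 0.19) and in 5 of 16 fits without 1 mouse (WT control 26 or 36, or WT alcohol 6, 7, or 17), with estimates of -1.06 to -0.95. Dynlt1f and Tmem181a lie in the same stretch of chromosome 17, and inherited differences between the mice there were not tested.

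**Figure D3:**
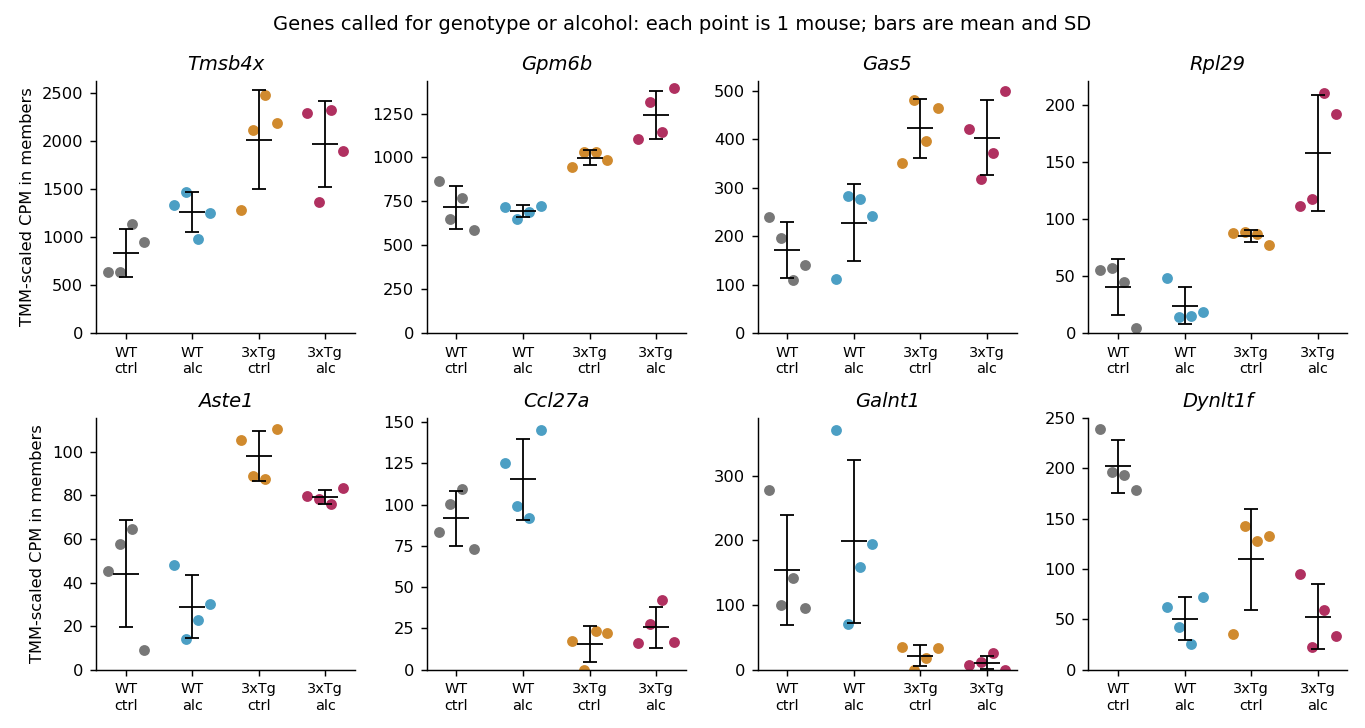
TMM-scaled CPM (linear axes from 0) of 8 genes called for genotype or alcohol in the members' summed UMIs, with 1 point per mouse and the mean with SD of each group. Ccl27a and Galnt1 lie higher in all 8 WT mice, Rpl29, Aste1, Gas5, and Gpm6b in all 8 3xTg-AD mice, and Dynlt1f is highest in the WT controls (178–239).

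The comparison of 3xTg-AD alcohol mice with WT controls, in which both factors changed, gave 19 called genes, a count that ran from 4 to 22 when 1 mouse was left out. Besides Tmsb4x, Rpl29, Gas5, and Gpm6b, the higher genes were Pnn, Pdlim7, and Gin1. Pnn (pinin, a splicing-associated protein) was at 305, 230.0, 289.9, and 365 in WT control and 564, 588, 574, and 768 in 3xTg-AD alcohol mice (1.06, SE 0.22, adjusted p = 0.00599), and in the 3xTg-AD control mice it spread from 262 to 785. Pdlim7, an actin-associated scaffold, was at 100.5–187 in WT controls and 238–279.9 in 3xTg-AD alcohol mice (0.92, SE 0.23, adjusted p = 0.043). Gin1, related to retroviral integrases, was at 13.9–54.7 and 67.5–134 (1.53, SE 0.37, adjusted p = 0.0365).

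Besides Dynlt1f, Ccl27a, and Galnt1, 9 genes were lower. Cpne9, the copine gene that members and Rorb nuclei share, was at 163, 134, 142, and 128 in WT control mice, 129.98, 113, 123, and 139 in WT alcohol mice, and 123, 142, 128, and 188 in 3xTg-AD control mice. It was at 79.5, 72.8, 25.3, and 66.8 in 3xTg-AD alcohol mice. These 4 mice were below the other 12, which overlapped freely. The log2 fold change was -1.18 versus WT controls (SE 0.29, adjusted p = 0.0399) and -1.21 versus 3xTg-AD controls (SE 0.33), where it was not called (adjusted p = 0.808), and the interaction was -1.04 (SE 0.41, adjusted p = 1).

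Nudt5, a hydrolase of ADP-ribose, was at 347, 474, 393, and 392.3 in WT control and 183, 218, 186, and 234 in 3xTg-AD alcohol mice (log2 fold change -0.96, SE 0.23, adjusted p = 0.0274). The 3xTg-AD controls, at 320.4–427, were also above the 3xTg-AD alcohol mice, and the WT alcohol mice ran from 206 to 491. Parg, which removes poly(ADP-ribose) chains, was at 86.7–220.5 in WT controls and 42.2–79.5 in 3xTg-AD alcohol mice (-1.20, adjusted p = 0.0425).
Signaling genes among those described here were Plcb4, a phospholipase C below G protein-coupled receptors (58.0–169 against 33.6–47.7, -1.55, adjusted p = 0.0243), and Sesn1 (sestrin 1, a stress-responsive inhibitor of mTORC1; 73.0–134 against 16.7–33.7, -1.73, adjusted p = 0.0243). The proprotein convertase Pcsk7 was at 128–281 against 50.4–103 (-1.45, adjusted p = 0.014). The predicted gene Gm43190, which the rule for named genes leaves out and which was added after its values were seen (125–348 against 56.0–119, -1.18, adjusted p = 0.0435) and the ribosomal RNA-associated AY036118 (629.5–977 against 430.2–559, -0.76, adjusted p = 0.0425) were lower too. The Gm43190 call was lost in 11 of 16 fits without 1 mouse, with an estimate of -0.83 without WT control mouse 28.

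Many of these genes no longer passed the threshold when mice were left out. Without WT control mice 26 and 27 and 3xTg-AD control mouse 12, Gin1, Pnn, Pdlim7, Ccl27a, Cpne9, Nudt5, Parg, Plcb4, Sesn1, Pcsk7, and AY036118 were no longer called in this comparison, though these kept their direction. As examples, the log2 fold changes without the 3 mice were -1.56 for Plcb4 and -1.78 for Ccl27a, close to those with them, and -0.77 for Pcsk7 and -0.68 for Parg, which were smaller. Those of the other genes that lost their call are not given here. Over the 37 calls of all comparisons, 13 were lost without these 3 mice, and 18, 16, and 14 were lost without 3xTg-AD alcohol mouse 31, 34, or 4 alone, mice that did not stand apart by Gm42418. With each of the 16 mice left out in turn, Rpl29, Dynlt1f, and Tmsb4x kept their calls in this comparison throughout, while the calls of the other genes described were lost in 1 (Gas5 and Pnn) to 12 fits (Pdlim7). The estimates moved less than the calls, from 0.76 to 1.06 for Pdlim7, -1.04 to -0.87 for Nudt5, and -1.86 to -1.56 for Sesn1. The ribosomal RNA-associated list moved with the groups. Its 8 genes summed to 3423–16542 CPM in the WT controls' members and 2209–2861 CPM in those of the 3xTg-AD alcohol mice, without overlap. Marker sums of other cells in members were 97.3–253 and 223–319 CPM for GABAergic cells, 97.3–241 and 89.3–431 CPM for astrocytes, 30.0–73.6 and 34.2–201 CPM for microglia, and 8.39–29.4 and 22.3–57.4 CPM for oligodendrocyte precursors in WT controls and 3xTg-AD alcohol mice, respectively. Among members with at most 1 UMI of these markers, 20 of the 37 calls could be fitted, 8 held, and 12 did not. In this comparison Tmsb4x, Dynlt1f, and AY036118 were still called, and Gas5 (1.09), Gpm6b (0.70), Pnn (0.97), Pdlim7 (1.10), Nudt5 (-0.84), Pcsk7 (-2.06), and Gm43190 (-1.51) were not, in a fit with fewer UMIs and fewer genes.

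Between the alcohol groups, Timp4 was the only called gene not named so far. This inhibitor of matrix metalloproteinases was at 457, 438, 299, and 375 in WT alcohol and 119, 146, 169, and 217 in 3xTg-AD alcohol mice, with no overlap (log2 fold change -1.25, SE 0.25, adjusted p = 0.00718). Both control groups lay between or around them, at 129–329 and 163–343. The other called genes in this comparison were Rpl29 (2.64, SE 0.39), Gpm6b (0.83, SE 0.17), Ccl27a (-2.12, SE 0.38), and Galnt1 (-4.17, SE 0.67). Of the 16 fits without 1 mouse, the Timp4 call was lost in 3 (WT alcohol 6 or 3xTg-AD alcohol 4 or 31), at -1.20 to -1.12. The Gpm6b call was lost in 6 (any 1 WT alcohol mouse or 3xTg-AD alcohol 31 or 34) and the Galnt1 call in 4 (3xTg-AD control 12 or 3xTg-AD alcohol 4, 31, or 33), at 0.78 to 0.85 and -4.78 to -4.05.

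To see whether the changes were particular to upper-layer nuclei, the same fit was made in the other classes and the difference of the effects was tested with the mouse as a block. No gene of 4661 passed in any of the 4 tests (232 and 247 with an unadjusted p under 0.05 against deep-layer marker nuclei and 198 and 196 against Rorb nuclei, for 3xTg-AD alcohol versus WT control and for genotype). These counts, too, are near or below a share of 0.05 of the genes tested. Side by side, Tmsb4x changed by 0.97 for genotype in members, 0.94 in deep-layer marker nuclei, and 1.08 in Rorb nuclei, with differences of 0.01 (SE 0.12) and -0.08 (SE 0.13). Gpm6b changed by 0.66, 0.96, and 0.91. Galnt1 changed by -3.51 in members, -1.71 in deep-layer marker nuclei, and -2.28 in Rorb nuclei, with a difference of -1.78 from the deep-layer marker nuclei (SE 0.48, adjusted p = 0.344). Dynlt1f, in 3xTg-AD alcohol mice versus WT controls, changed by -2.001, -2.38, and -1.57. Plcb4 was apart in the same comparison, at -1.55 in members and -0.09 in deep-layer marker nuclei, but its difference of -1.53 (SE 0.45) had an adjusted p of 0.765. Cpne9 changed by -1.18 in members and -0.55 in Rorb nuclei and had too few UMIs for a test in deep-layer marker nuclei.

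**Figure D4:**
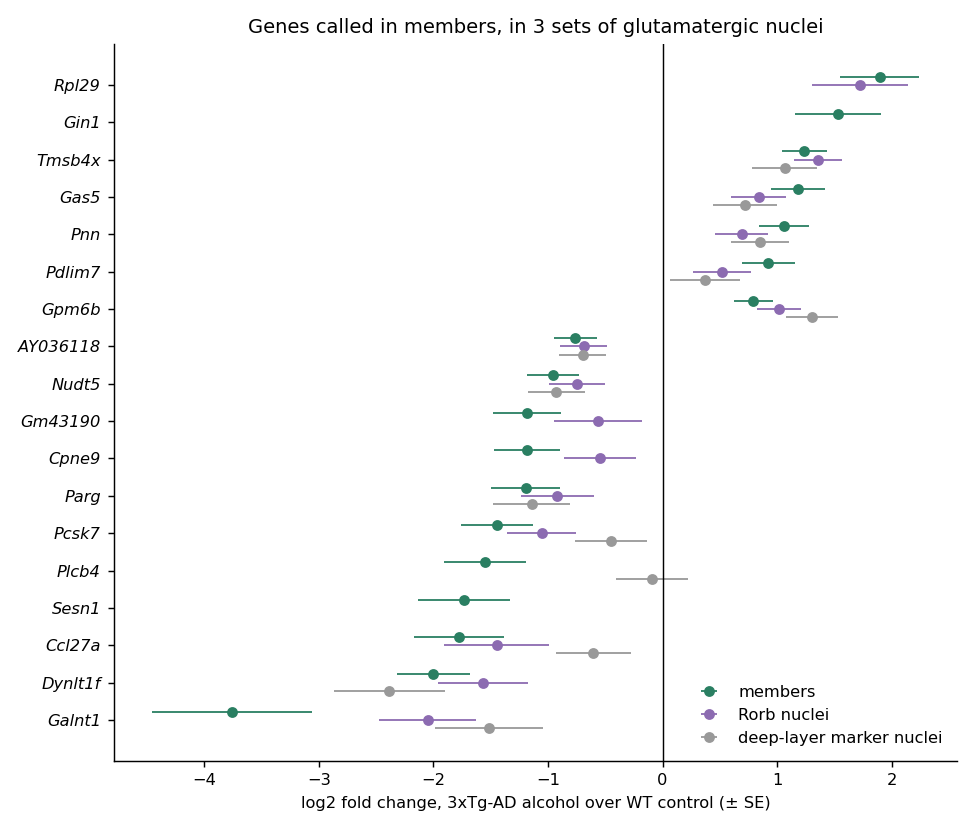
Log2 fold changes with SE, 3xTg-AD alcohol mice over WT controls, of the called genes described in the text, in members, Rorb nuclei, and deep-layer marker nuclei, with no point where a class had too few UMIs for the fit. AY036118 lies at -0.76, -0.69, and -0.70 in members, Rorb nuclei, and deep-layer marker nuclei, while Plcb4 lies near 0 (-0.09) in deep-layer marker nuclei against -1.55 in members.

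Gene lists were read by their counts and medians, beside the median over all genes tested, which was 0.01 on the log2 scale for 3xTg-AD alcohol mice versus WT controls. The background for these counts is the 0.429% of genes called. Of the upper-layer markers outside the rule, 0 of 9 tested were called, with a median of -0.14. The largest difference among them was Unc5d, a netrin receptor (-1.04, SE 0.48, adjusted p = 0.544), and Rfx3 was at 0.81 (SE 0.27, adjusted p = 0.236).

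Immediate early genes, which neurons switch on with activity, had the lowest median of the lists with at least 5 tested genes, -0.77, with 0 of 6 tested genes called and 1 above 0. Egr1 was at 125, 168, 116, and 68.4 in WT control, 116, 127, 30.7, and 66.6 in WT alcohol, 123, 107, 186, and 144 in 3xTg-AD control, and 55.6, 50.4, 101, and 50.1 in 3xTg-AD alcohol mice. All 3xTg-AD alcohol mice were below all 3xTg-AD controls, while the WT groups overlapped. Its log2 fold change for alcohol over both genotypes was -0.98 (SE 0.24, adjusted p = 0.154). Homer1, a postsynaptic scaffold with an activity-induced short form, was at -0.59 in that comparison (SE 0.18, adjusted p = 0.289), Egr3 at -0.63 (SE 0.26, adjusted p = 0.55), and Junb at -0.55 (SE 0.44, adjusted p = 0.821). The list's median for alcohol was -0.61, with 0 of 6 genes above 0, against 0.00 for all genes, and for genotype it was 0.04. None of these genes passed the test.

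Of 78 cytosolic ribosomal protein genes tested, 61 were above 0 with a median of 0.18, and Rpl29 was the only one called. Nuclear-encoded oxidative phosphorylation genes had 48 of 70 above 0 with a median of 0.16, and none was called. The sums of both lists overlapped between the groups, with ribosomal protein CPM of 11996–17162 for WT control and 11182–24994 for 3xTg-AD alcohol mice, and oxidative phosphorylation medians of 8190 and 8383 CPM. Actin-binding and thymosin genes had a median of 0.20 over 21 genes, with Tmsb4x called. Mitochondrially encoded genes were at -0.15 with 3 of 12 above 0, and mt-Co3 was at 0.21 (SE 0.20, adjusted p = 0.789).
Synaptic lists stayed near the background. Medians were -0.11 for synaptic vesicle release (30 genes), -0.12 for postsynaptic scaffolds and kinases (25), -0.08 for ionotropic glutamate receptors (10), 0.05 for GABA and glycine receptors (13), -0.13 for potassium channels (26), 0.03 for sodium and calcium channels (22), and 0.01 for neurexins, neuroligins, and partners (21), with no gene called in any. Examples were Gria2, an AMPA receptor subunit (-0.14), Camk2a, the postsynaptic kinase (-0.30), Syt1, the vesicle calcium sensor (0.30), and Kcnma1, the large-conductance potassium channel (-0.12).

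Genes of amyloid precursor protein processing and tau had 0 of 19 called and a median of -0.19. Mouse App was at 359–535 in WT controls and 308–464 in 3xTg-AD alcohol mice (-0.21, SE 0.21, adjusted p = 0.807), and the groups overlapped. Mapt, the mouse tau gene, was at -0.12 (SE 0.21, adjusted p = 0.898). The count table has no separate human transcript of App or Mapt, so these values do not measure the transgenes. Whether transgene reads count toward the mouse genes was not tested. The 15 genes at Alzheimer disease loci had a median of -0.02, and 0 were called. Cadherins and protocadherins had a median of -0.13 over 13 genes, and 0 were called.

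**Figure D5:**
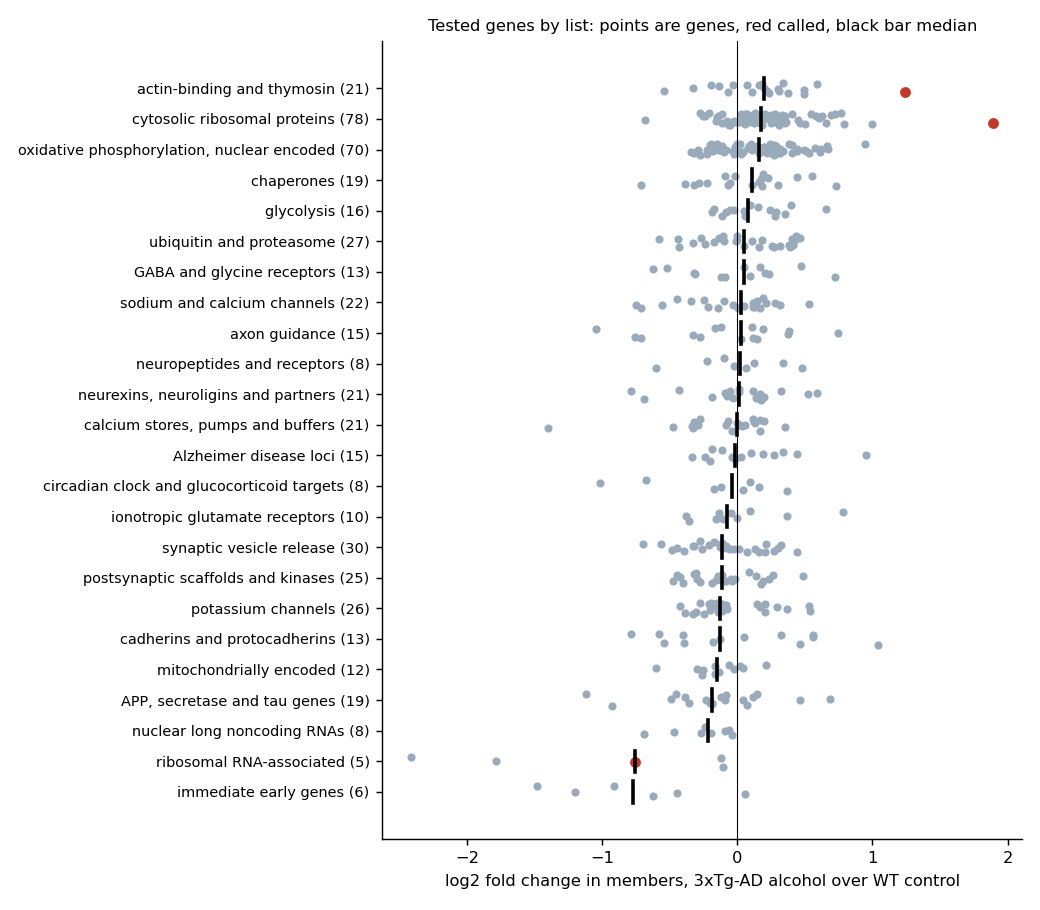
Log2 fold changes in members, 3xTg-AD alcohol mice over WT controls, of the tested genes of each list with at least 5 of them (number in parentheses), as points, with called genes in red and the median as a black bar. Immediate early genes (median -0.77) and ribosomal RNA-associated transcripts (-0.76) lie lowest, and the called genes are Tmsb4x, Rpl29, and AY036118.

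Among the genes the study names for L2/3 IT neurons, Mrpl33, a mitochondrial ribosomal protein, was at 93.6, 76.7, 64.4, and 68.4 in WT control and 79.5, 33.6, 67.5, and 41.8 in 3xTg-AD alcohol mice (-0.51, SE 0.33, adjusted p = 0.684). Pcdh17, a protocadherin, was at 83.2–260.0 and 150.3–375 (0.56, SE 0.35, adjusted p = 0.676). Both overlapped between the groups. Cmss1 had 48 UMIs in all members, Cdh9 had 91, and Ifitm3 had 14, too few for the filter on low counts, so they were not tested in this fit. Ifitm3 had 1 UMI in the WT controls and 8 in the 3xTg-AD alcohol mice. The study's L2/3 IT class was assigned by another method, and its overlap with the members was not measured.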

How the data were processed

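Nuclei were isolated from snap-frozen medial prefrontal cortex of 16 male mice, and libraries were made with 10x Chromium 3' chemistry. The authors made the deposited UMI counts per gene and nucleus with Cell Ranger on the mouse genome mm10. The limits of the nucleus filter are not given in the sources used here, and the table holds slightly more nuclei (114512) than the study states. All columns were used. Doublets were not called again.

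Members and gene lists were chosen with earlier results of these data known. Counts were summed per mouse over members and fitted with edgeR (4.0.16, R 4.3.3), with TMM scaling, filterByExpr, and the robust quasi-likelihood test with Benjamini-Hochberg adjustment (call at 0.05), over 4 groups of 4 separate mice. DESeq2 (1.42.0) was an alternative. Class differences used 1 fit over members, deep-layer marker nuclei, and Rorb nuclei together, with the mouse as a block. Shares were compared by exact two-sided permutation, and also over all nuclei and with at least 5 marker UMIs. Named genes were, for each contrast, up to 10 higher and 10 lower called genes with the smallest adjusted p and no overlap between the groups (genes of the rule, predicted genes, and RIKEN clones left out), called members and up to 4 of the most abundant other members of each list, cell type markers, and the genes the study names for L2/3 IT neurons. Gene positions are from GENCODE M21 (GRCm38). Scripts were tested on simulated data. Alternatives were relative log expression scaling, no filter, thinning to 1500 UMIs, members without other cells' markers (at most 1 UMI), leaving out each mouse, and, chosen after seeing the data, at least 2 marker UMIs. Some genes that the rule names are not reported here.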

Additional observations from a re-analysis of the deposited data

Results flagged for a closer look

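In 92 groups of 4 mice, 8 had a mouse set apart from the other 3 by a gap above Dixon's 95% critical value for 4 samples, where chance gives about 1 in 20, or 4.6. In TMM-scaled CPM these were Gm43190 in WT control mouse 28 (348), Plcb4 in WT alcohol mouse 7 (14.1) and 3xTg-AD control mouse 21 (55.2), Rpl29 in WT alcohol mouse 6 (48.1) and 3xTg-AD control mouse 21 (77.3), Dynlt1f in 3xTg-AD control mouse 12 (35.1), Pnn in 3xTg-AD alcohol mouse 34 (768), and Sesn1 in 3xTg-AD alcohol mouse 34 (16.7). The mouse with 35.1 for Dynlt1f gave 17 members, the fewest of all mice.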

How the results depend on the processing

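Counts of called genes changed with the setting. For 3xTg-AD alcohol mice versus WT controls (19 genes), DESeq2 called 11, the fit without the 3 mice high in Gm42418 12, members thinned to 1500 UMIs 10 (1751 genes tested), members with at most 1 UMI of other cells' markers 4 (1179 genes tested), and nuclei with at least 2 marker UMIs, chosen after seeing the data, 62. Leaving out 1 mouse gave 4 to 22, with 9 without WT control mouse 26, 11 without 27, and 9, 5, and 4 without 3xTg-AD alcohol mice 4, 31, and 34. For 3xTg-AD controls versus WT controls (3), no filter gave 13, few other markers 1, 2 marker UMIs 7, and leaving out 1 mouse 1 to 5. For WT alcohol mice versus WT controls (2), DESeq2, thinning, and 2 marker UMIs gave 1 each, no filter and the fit without the 3 mice 4 each, and leaving out 1 mouse 1 to 3. For 3xTg-AD alcohol mice versus 3xTg-AD controls (0), no filter gave 3, 2 marker UMIs 1, and leaving out 1 mouse 0. Between the alcohol groups (5), no filter gave 10, the fit without the 3 mice 8, thinning 3, few other markers 0, 2 marker UMIs 19, and leaving out 1 mouse 2 to 6. For genotype (7) these gave 22, 11, 4, 3, 71, and 6 to 10, and for alcohol (1) 7, 7, 0, 3, 18, and 1 to 4. The interaction stayed at 0 in these fits. The difference from deep-layer marker nuclei for genotype gave 2 genes with no filter, and leaving out 1 mouse gave 0 to 1 for both deep-layer tests and the first Rorb test and 0 for genotype against Rorb nuclei. The cause of these changes was not tested, apart from the fewer genes tested.

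Leaving out 1 mouse moved the differences in share to between -3.21 and -2.23, -3.45 and -2.47, -1.89 and -0.909, -0.0699 and 0.737, and -1.70 and -0.858 points, in the order of the comparisons given for the shares. The difference between 3xTg-AD alcohol mice and 3xTg-AD controls turned to -0.212 with 2 marker UMIs, -0.00471 with thinning, and -0.0699 without the 3 mice. Gria2 turned to 0.0304 without the 3 mice. With 1 mouse left out, Map2 ran from -0.301 to 0.0515 and mt-Co3 from -0.0302 to 0.304. No paired analysis was possible because the mouse numbers are unique across the groups. At least 5 marker UMIs was not run for gene expression, since 3xTg-AD control mouse 12 had 0 such nuclei.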
